A study of Homo sapiens with 24 samples.

Results

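The comparison described here is overexpression of the circular RNA cATF6 in Parental HCC827 cells, read as whole-transcriptome gene counts in 3 libraries with overexpression (OC) and 3 libraries with the empty vector (EV), 6 of the 24 samples in the series. The 6 libraries were chosen by their labels and table columns, not by any measured value. HCC827 is an established line from a lung adenocarcinoma whose EGFR gene carries an activating mutation, and the series concerns its response to osimertinib, an inhibitor of mutant EGFR. Parental OC cells carry the cATF6 construct and Parental EV cells carry the vector alone. The labels give the EV cells as WT, name no drug for either group, and put both in DMEM with fetal bovine serum. The same contrast exists in cells that survived the drug as drug-tolerant persisters (DTP) and in Resistant cells, used here only where their response is set beside that of Parental cells. Ribosomal RNA had been removed and the libraries were directional. The labels do not say that the 3 libraries of a group came from separate cultures or transductions, so every p-value below measures only the spread between these libraries, which may be technical.

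ATF6 is a membrane protein of the endoplasmic reticulum (ER). When unfolded protein accumulates it moves to the Golgi, is cut by the site-1 and site-2 proteases, and its released part enters the nucleus and switches on ER chaperone genes. The ER is also the main calcium store of the cell, filled by SERCA pumps and emptied through IP3 receptors, and the series names calcium homeostasis as its subject. A circular RNA arises when an exon end is spliced back to an upstream exon start, and it keeps exon sequence of its host gene. In EGFR-mutant lung cancer cells the receptor drives the MAPK cascade and its feedback genes, while NF-kB and AP-1 transcription factors drive cytokines, chemokines and early response genes.

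Totals ran from 34000009 to 40152649 counts per Parental library. Epithelial markers were present, with 188310 and 165512 summed counts of KRT18 and 44170 and 41344 of EPCAM in OC and EV libraries, and the lung lineage factor NKX2-1 at 8719 and 8178. Of 14 tested lung epithelium markers 3 were higher (21.4%), KRT18 and EPCAM among them, and 4 were lower (28.6%). Over all tested genes these shares were 19.5% and 21.2%. The lower ones included SLC34A2, FOXA1 and CDH1 (log2 -0.74, -0.295 and -0.19). In the 18-library fit 1 was higher and 0 lower, and 2 further markers were too scarce to test. PTPRC, which marks leukocytes, had 5 summed counts in OC and 0 in EV, and the fibroblast markers PDGFRA and POSTN were at 0 in both. COL1A1, of the same list, had 667, 639 and 725 scaled counts in OC libraries, against 559, 512 and 551 in EV libraries (log2 0.32, adjusted p = 0.00289, and 0.0626 in the 18-library fit described below). Of 4 tested leukocyte markers 3 were lower, with summed levels of 3660 to 4000 in OC and 5510 to 5700 in EV libraries, mostly CD68, a lysosomal protein that macrophages carry (3845, 3532 and 3592 scaled counts in OC libraries, against 5425, 5320 and 5504 in EV libraries), and their part in the results below was not tested. The calls of the other two, CSF1R and ITGAM, did not hold with some libraries left out (adjusted p up to 0.0617 and 0.0818). The first principal component separated the 3 OC from the 3 EV libraries and held 71.4% of the variance. Replicates differed by more than counting error, with a chi-square per degree of freedom of 5.57 to 7.3 in Parental OC and 5.01 to 7.18 in Parental EV.

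Overexpression went with many small differences and few large ones. Of 13984 genes tested, 2732 were higher in OC (19.5%) and 2966 were lower (21.2%) past an adjusted p 0.05 in the limma moderated test, and 88.1% of those called differed by less than 1.5-fold. Together that is 40.7% of tested genes. At least a 1.5-fold rise was found for 209 genes (1.49%) and at least a 1.5-fold fall for 469 (3.35%), together 4.85%. At least 2-fold were 53 rises (0.379%) and 164 falls (1.17%). The OC and EV libraries did not overlap for 25.3% of tested genes on the higher side and 26.4% on the lower side. The count of calls depended on the libraries that set the spread. When the spread was pooled over 18 libraries that include the more variable DTP cells, 911 genes were higher (5.99%) and 1217 were lower (8.0%), and 97.9% of those calls were also calls of the 6-library test. For many genes and lists below whose call or count did not hold under that pooled spread, the 18-library value is given beside the first. Each list count is to be read beside the share over all tested genes in the same fit. These shares were 19.5% higher and 21.2% lower, and 5.99% and 8.0% in the 18-library test. Members named beyond those with the smallest p were chosen after their values were seen. Levels are counts scaled by trimmed mean of M-values (TMM). They depend on transcript length, so they are compared between groups and not between genes, and changes are log2 fold changes of OC over EV with their standard error (SE).

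**Figure D1:**
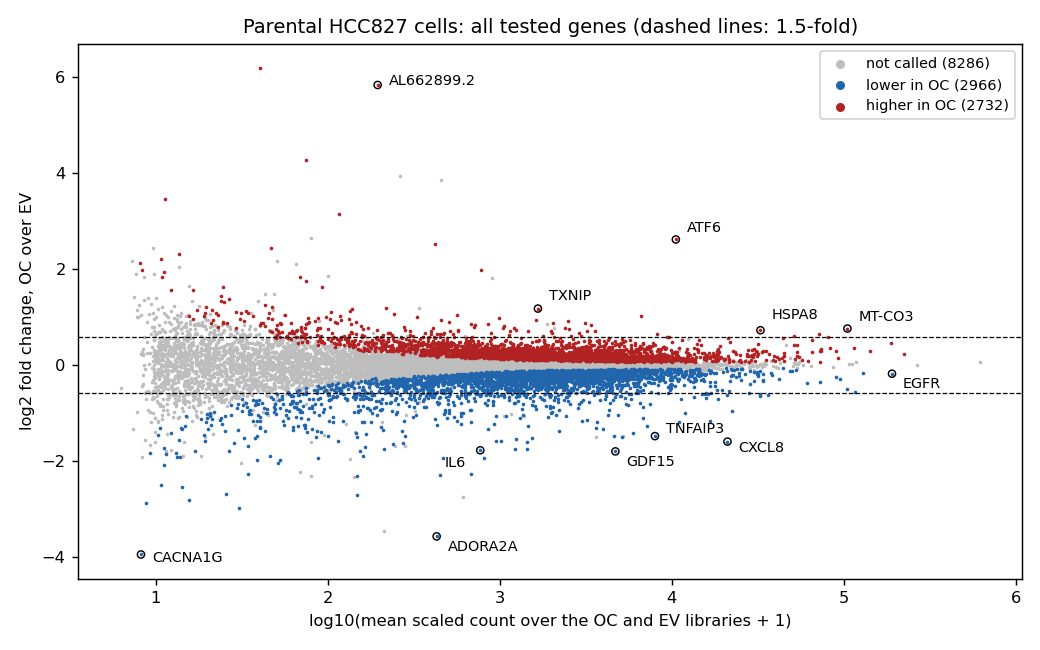
Each point is 1 of 13984 tested genes, with the log10 of its mean scaled count over the 6 Parental libraries on the horizontal axis and its log2 fold change of OC over EV on the vertical axis. The 2732 genes higher in OC are red, the 2966 genes lower are blue, and most lie between the dashed lines at 1.5-fold.

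ATF6 itself was read first, as the check of the construct. It had 18355, 17791 and 18380 scaled counts in OC libraries, against 2884, 2966 and 2999 in EV libraries. Every OC library thus lay far above every EV library. The rise was 6.16-fold (log2 2.62, SE 0.027, adjusted p = 1.96e-13). Circular and linear reads fall into 1 gene count, so the rise cannot be divided between cATF6 and ATF6 messenger RNA here. The authors' deposited circRNA table lists 2 circles of the ATF6 locus, both on hg19 and the plus strand. These are hsa_circ_0015031 at chr1:161748034-161772062 with a spliced length of 3674 bases and hsa_circ_0015026 at chr1:161771841-161789608 with 407 bases. Whether cATF6 is either of them is not given in the sources used here.

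The rest of the ATF6 family moved little. Of 8 tested members, ATF6 was the single one higher and CREB3L2, an ER-bound relative, the single one lower. CREB3L2 had 2750, 2857 and 2852 scaled counts in OC libraries, against 3409, 3498 and 3317 in EV libraries (log2 -0.27, adjusted p = 6.94e-05). The close homologue ATF6B differed by 0.01 on the log2 scale (adjusted p = 0.84). MBTPS1 and MBTPS2, the site-1 and site-2 proteases that cut ATF6, differed by 0.08 (adjusted p = 0.0525) and -0.11 (adjusted p = 0.0703).

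Chaperones and folding enzymes that ATF6 and XBP1 are known to induce were on balance slightly lower, not higher, in OC cells. Of 27 tested, 12 were lower (44.4%, against 21.2% of all tested genes) and 3 were higher (11.1%, against 19.5%), with a median log2 fold change of -0.08, against 0.00 over all tested genes. In the 18-library test 7 were lower and 3 were higher, against 8.0% and 5.99% of all genes tested there. HSPA5 encodes BiP, the ER Hsp70 chaperone and a classical ATF6 target. It had 35879, 34981 and 36741 scaled counts in OC libraries, against 40842, 40588 and 41722 in EV libraries, and it fell 1.14-fold (log2 -0.19, SE 0.025, adjusted p = 0.000104). The groups did not overlap, as for 26.4% of all tested genes on the lower side, and the distance between them was small beside the level. Its RefSeq promoter (GRCh38.p14) is shown because it holds the ER stress element (CCAAT, 9 bases, CCACG; in capitals) through which ATF6 is known to act.
HSPA5, chr9:125241351-125241450, minus strand: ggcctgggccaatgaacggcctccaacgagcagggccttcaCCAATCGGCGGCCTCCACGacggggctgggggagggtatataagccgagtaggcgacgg
The element was found on either strand in 5 of 2380 promoters of lower genes (0.21%), in 0 of 2265 of higher genes, which allows up to 0.169% by the Wilson interval, and in 14 of 11328 of all tested genes (0.124%).

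Others of that list fell further. DNAJB9, a BiP co-chaperone, had 610, 598 and 605 scaled counts in OC libraries, against 1095, 1035 and 1094 in EV libraries, a 1.78-fold fall (log2 -0.83, SE 0.051, adjusted p = 3.55e-07). HERPUD1, which takes part in ER-associated degradation, fell 1.34-fold (log2 -0.42, adjusted p = 5.83e-06), and XBP1, the transcription factor activated by IRE1, fell by 0.33 (adjusted p = 7.26e-05). P4HB, a protein disulfide isomerase, fell by 0.19 (adjusted p = 5.23e-05). The members that rose were TXNDC5, another disulfide isomerase (log2 0.34, adjusted p = 5.39e-06), DERL1 of the retrotranslocation channel (log2 0.27, adjusted p = 0.000223) and SEC61B of the protein import channel (log2 0.28, adjusted p = 0.000121). CANX and PDIA3, a lectin chaperone and its disulfide isomerase partner, differed by -0.04 (adjusted p = 0.184) and -0.02 (adjusted p = 0.543).

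Genes of the PERK and ATF4 branch of the stress response were called in both directions. Of 28 tested members, 9 were higher (32.1%) and 8 were lower (28.6%), with a median of 0.02 on the log2 scale. Over all tested genes these shares were 19.5% and 21.2%. DDIT3, which encodes CHOP, had 682, 717 and 722 scaled counts in OC libraries, against 2047, 2062 and 2355 in EV libraries, a 3.04-fold fall (log2 -1.60, SE 0.058, adjusted p = 6e-09). PPP1R15A, the GADD34 subunit that reverses eIF2 alpha phosphorylation, fell 2.48-fold (log2 -1.31, SE 0.037, adjusted p = 6.4e-10). GDF15, a secreted stress cytokine, had 2096, 2182 and 2036 scaled counts in OC libraries, against 7379, 7143 and 7389 in EV libraries, a 3.47-fold fall (log2 -1.79, SE 0.034, adjusted p = 4.18e-11). Some members rose, among them DDIT4 and CHAC1 (log2 0.20, adjusted p = 3.26e-05 for DDIT4 and log2 0.19, adjusted p = 0.0472 for CHAC1), and in the 18-library test these were at 0.142 and 0.691. The serine synthesis enzymes PSAT1, PSPH and PHGDH rose by 0.48 (adjusted p = 1.34e-07), 0.50 (adjusted p = 3.64e-07) and 0.23 (adjusted p = 8.45e-05) on the log2 scale. ATF4 itself differed by 0.03 (adjusted p = 0.435).

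NF-kB regulators and the inflammatory genes they drive were lower in OC cells. Of 27 tested NF-kB regulators, 19 were lower (70.4%, against 21.2% of all tested genes) and 0 were higher, with a median log2 fold change of -0.32. In the 18-library test 12 regulators were lower and 0 higher. Of 29 tested NF-kB and inflammatory targets, 22 were lower (75.9%) and 0 were higher, with a median of -0.65. Of 15 tested CXCL and CCL chemokines, 9 were lower (60.0%) and 0 were higher, with a median of -1.03. At an unadjusted p under 0.05 in the same limma test 0 members of these lists were higher as well. These lists were drawn up with earlier results of these data known, so their direction is not independent evidence.

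Stretches of 100 bases from RefSeq promoters (GRCh38.p14) are shown for 7 of these genes, each 5′ to 3′ on the strand of its gene and placed around a match to an NF-kB motif, which is in capitals. The patterns searched were GGANTTTCC and GGAANTTCC, on both strands, from 250 bases before to 50 after the gene start. A site that fits both patterns was counted once. The 7 genes were picked after their values were seen, as lower genes that hold a match.
TNFAIP3, chr6:137867146-137867245, plus strand: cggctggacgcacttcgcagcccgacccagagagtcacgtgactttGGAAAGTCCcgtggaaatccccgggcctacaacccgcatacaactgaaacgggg
NFKBIA, chr14:35404777-35404876, minus strand: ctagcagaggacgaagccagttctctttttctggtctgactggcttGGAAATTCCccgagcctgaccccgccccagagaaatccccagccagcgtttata
CXCL8, chr4:73740432-73740531, plus strand: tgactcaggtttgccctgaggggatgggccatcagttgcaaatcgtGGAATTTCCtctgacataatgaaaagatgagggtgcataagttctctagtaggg
CXCL1, chr4:73869269-73869368, plus strand: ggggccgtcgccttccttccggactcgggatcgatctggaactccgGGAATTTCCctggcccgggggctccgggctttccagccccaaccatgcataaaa
CXCL2, chr4:74099219-74099318, minus strand: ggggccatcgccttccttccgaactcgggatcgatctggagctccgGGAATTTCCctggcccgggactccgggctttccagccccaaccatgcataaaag
ICAM1, chr19:10270888-10270987, plus strand: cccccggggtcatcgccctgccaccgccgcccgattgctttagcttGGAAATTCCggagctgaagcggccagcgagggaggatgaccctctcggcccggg
IL6, chr7:22727082-22727181, plus strand: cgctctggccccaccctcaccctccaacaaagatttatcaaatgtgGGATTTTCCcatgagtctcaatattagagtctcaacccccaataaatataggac

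Over the whole table such matches were uncommon. A promoter was at hand for 11328 tested genes (81.0%). Either NF-kB pattern was present in 3.32% of the 2380 promoters of lower genes (Wilson interval 2.67 to 4.12%), in 2.34% of the 2265 promoters of higher genes (1.79 to 3.05%) and in 2.3% of all 11328 (2.04 to 2.6%). The AP-1 pattern TGANTCA was present in 6.05% of promoters of lower genes (5.16 to 7.08%), 3.66% of higher genes (2.97 to 4.52%) and 4.75% of all (4.37 to 5.16%). A match is a run of letters and not a bound site, and most genes that fell had none in this window.

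Among the regulators, the inhibitors that NF-kB itself induces fell with the subunits. TNFAIP3 encodes A20, a ubiquitin-editing enzyme that shuts the pathway off. It had 3999, 4243 and 4425 scaled counts in OC libraries, against 11895, 11697 and 11655 in EV libraries, a 2.78-fold fall (log2 -1.48, SE 0.035, adjusted p = 2.4e-10). NFKBIA, which encodes the cytoplasmic inhibitor I-kappa-B alpha, had 8451, 8740 and 8576 in OC libraries, against 14025, 13993 and 13875 in EV libraries, a 1.63-fold fall (log2 -0.70, SE 0.024, adjusted p = 4.15e-09). In both genes the highest OC library lay well below the lowest EV library. The subunit genes NFKB1, NFKB2, RELB, REL and RELA fell by 0.39, 0.57, 0.78, 0.49 and 0.23 on the log2 scale, with adjusted p from 3.19e-07 to 0.000271. RIPK2, a kinase that relays innate signals to NF-kB, fell 1.45-fold (log2 -0.53, SE 0.028, adjusted p = 8.99e-08). The kinase genes IKBKB and CHUK, which encode the IKK subunits, differed by -0.07 (adjusted p = 0.273) and 0.09 (adjusted p = 0.164).

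Cytokines, adhesion molecules and a prostaglandin enzyme were among the targets that fell. IL6 had 321, 337 and 390 scaled counts in OC libraries, against 1169, 1188 and 1216 in EV libraries, a 3.42-fold fall (log2 -1.77, SE 0.074, adjusted p = 1.74e-08). CSF2, which encodes GM-CSF, had 614, 644 and 712 in OC libraries, against 2213, 2221 and 2208 in EV libraries, a 3.37-fold fall (log2 -1.75, SE 0.056, adjusted p = 1.78e-09). IL23A, the p19 subunit of interleukin 23, had 178, 200 and 202 in OC libraries, against 723, 768 and 731 in EV libraries (log2 -1.94, SE 0.079, adjusted p = 1.45e-08). OC and EV values were far apart in each of these genes. TNF stood lower, at 34.7, 32.4 and 37.9 in OC libraries, against 123, 124 and 169 in EV libraries (log2 -1.94, SE 0.18, adjusted p = 1.03e-05). LTB, the neighbouring gene for lymphotoxin beta, had 46.5, 63.9 and 103 in OC libraries, against 234, 248 and 225 in EV libraries (log2 -1.79, SE 0.23, adjusted p = 9.68e-05). PTGS2, which encodes the prostaglandin enzyme COX-2, fell 2.13-fold (log2 -1.09, SE 0.031, adjusted p = 7.57e-10), and ICAM1, a leukocyte adhesion molecule, 1.93-fold (log2 -0.95, SE 0.026, adjusted p = 5.23e-10). IL1A and IL1B fell by 1.14 (adjusted p = 1.78e-09) and 1.06 (adjusted p = 5.19e-09) on the log2 scale, the change of IL1A having an adjusted p of 0.0643 in the 18-library test. CCND1, the cyclin D1 gene and a less specific target, differed by -0.01 (adjusted p = 0.881).

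Neutrophil-attracting chemokines made up most of the chemokine result. CXCL8 encodes interleukin 8. It had 10858, 10656 and 10002 scaled counts in OC libraries, against 33107, 31239 and 30623 in EV libraries, a 3.01-fold fall (log2 -1.59, SE 0.037, adjusted p = 1.7e-10). CXCL2 fell 2.81-fold (log2 -1.49, SE 0.037, adjusted p = 3.09e-10) and CXCL1 2.25-fold (log2 -1.17, SE 0.036, adjusted p = 1.72e-09). CCL20, which attracts cells with the receptor CCR6, had 2406, 2450 and 2430 in OC libraries, against 6787, 6748 and 6752 in EV libraries (log2 -1.48, SE 0.027, adjusted p = 4.18e-11, and 0.223 in the 18-library test). Replicates of CCL20 were thus very close in Parental cells. CX3CL1, which is made as a membrane-bound chemokine, fell by 1.03 (adjusted p = 1.45e-08, and 0.116 in the 18-library test). CCL2 and CXCL6 were not called, at -0.16 (adjusted p = 0.373) and 0.10 (adjusted p = 0.598).

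**Figure D2:**
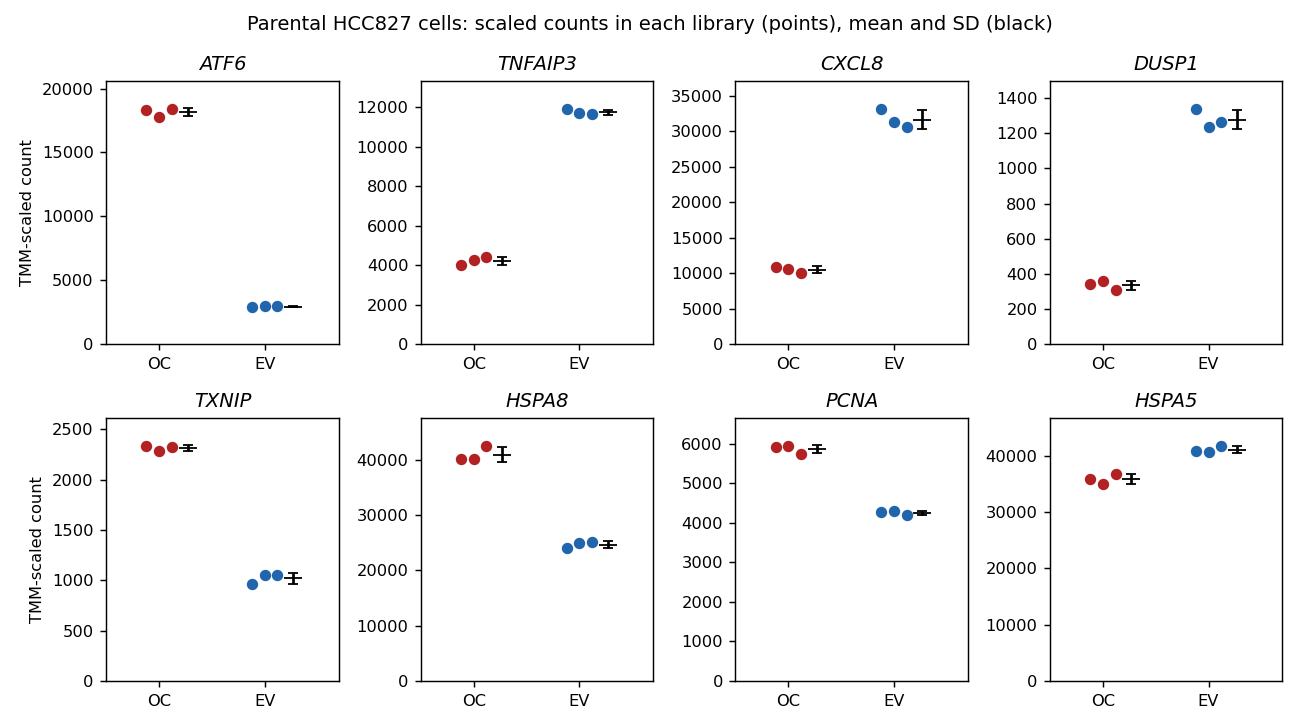
Scaled counts of 8 genes are plotted for each Parental library, with OC in red and EV in blue, and the black marks give the mean and SD of 3 libraries. ATF6 is 6.16-fold higher in OC, TNFAIP3, CXCL8 and DUSP1 are lower, TXNIP, HSPA8 and PCNA are higher, HSPA5 is 1.14-fold lower, and in none of the 8 do the groups overlap. Over all tested genes the groups did not overlap for 25.3% on the higher side and 26.4% on the lower side.

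AP-1 subunits and immediate early genes, which cells switch on within minutes of a stimulus, were lower as a group. Of 31 tested, 23 were lower (74.2%, against 21.2% of all tested genes) and 0 were higher (against 19.5%). The median log2 fold change was -0.57. IER3 is also on the MAPK and NF-kB lists, and DUSP1 and CYR61 on others described below. JUN had 3208, 3258 and 3101 scaled counts in OC libraries, against 6745, 6372 and 6490 in EV libraries, a 2.05-fold fall (log2 -1.03, SE 0.033, adjusted p = 1.73e-09). JUNB fell 1.79-fold (log2 -0.84, SE 0.027, adjusted p = 2.25e-09), FOS by 0.80 (adjusted p = 8.88e-06, and 0.064 in the 18-library test), FOSL2 by 0.58 (adjusted p = 9.15e-08) and ATF3 by 1.18 (adjusted p = 8.68e-07) on the log2 scale. ZFP36, which encodes the RNA-destabilising protein tristetraprolin, fell by 1.27 (adjusted p = 8.41e-08). Among the 8 not called were the ERK-driven genes FOSL1 and EGR1, which differed by 0.03 (adjusted p = 0.645) and -0.11 (adjusted p = 0.068).

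Dual-specificity phosphatases, which switch off MAP kinases, gave a mixed reading. Of 14 tested, 6 were lower (42.9%, against 21.2% of all tested genes) and 0 were higher (against 19.5%). DUSP1, an early response phosphatase for p38 and JNK, had 342, 357 and 307 scaled counts in OC libraries, against 1337, 1234 and 1262 in EV libraries, a 3.81-fold fall (log2 -1.93, SE 0.069, adjusted p = 5.45e-09). DUSP5, a nuclear ERK phosphatase, had 1234, 1191 and 1278 in OC libraries, against 3202, 3151 and 3186 in EV libraries, a 2.58-fold fall (log2 -1.37, SE 0.038, adjusted p = 6.06e-10). DUSP6, the cytoplasmic ERK phosphatase commonly read as MAPK output, had 2311, 2341 and 2311 in OC libraries, against 2289, 2221 and 2168 in EV libraries. The OC values of DUSP6 were all above the EV values, as for 25.3% of all tested genes. The difference of 0.06 (SE 0.035) did not pass the test (adjusted p = 0.189).

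The wider list of EGFR and MAPK output was less uniform than the AP-1 list. Of 25 tested, 12 were lower (48.0%, against 21.2% of all tested genes) and 3 were higher (12%, against 19.5%), with a median of -0.13. The 18-library test gave 3 lower and 1 higher, against 8.0% and 5.99% of all genes tested there. Lower members included EPHA2, a receptor tyrosine kinase (log2 -0.64, SE 0.034, adjusted p = 1.08e-07), the feedback inhibitor SPRY4 (log2 -0.68, adjusted p = 2.34e-05) and MYC (log2 -0.29, adjusted p = 5.86e-06), of which SPRY4 and MYC were at 0.158 and 0.0752 in the 18-library test. The ETS factors ETV4 and ETV5, which sit directly under ERK, differed by -0.06 (adjusted p = 0.394) and -0.04 (adjusted p = 0.38). HMGA2, an architectural chromatin protein, and TGFA, an EGFR ligand, rose by 0.37 (adjusted p = 5.22e-06) and 0.15 (adjusted p = 0.00847, and 0.489 in the 18-library test).

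Receptor genes themselves changed by small amounts. EGFR had 177705, 179263 and 180314 scaled counts in OC libraries, against 203462, 205324 and 198061 in EV libraries, a 1.13-fold fall (log2 -0.18, SE 0.025, adjusted p = 0.00019). MET, a receptor that can bypass EGFR inhibition, had 45751, 46208 and 47033 in OC libraries, against 52489, 50468 and 49043 in EV libraries (log2 -0.13, SE 0.028, adjusted p = 0.00349, and 0.508 in the 18-library test). For both receptors every OC library lay below every EV library, as for 26.4% of all tested genes, and the margin was small. AXL, another bypass receptor, was scarce at 70.3, 76.2 and 38.9 in OC libraries, against 67.9, 79.9 and 82.1 in EV libraries, and these overlapped (log2 -0.36, SE 0.25, adjusted p = 0.268). Over 16 tested receptors of the ERBB and bypass families, 8 were lower (50%) and 2 higher (12.5%), against 21.2% and 19.5% of all tested genes. The 18-library test gave 3 of 19 lower and 1 higher, against 8.0% and 5.99%. INSR, the insulin receptor, fell by 0.45 (adjusted p = 3.56e-05), KIT by 1.05 (adjusted p = 0.000891, and 0.116 in the 18-library test) and FGFR1 by 0.63 (adjusted p = 9.06e-05, and 0.0668 in the 18-library test), while FGFR3 rose by 0.32 (adjusted p = 0.000352).

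**Figure D3:**
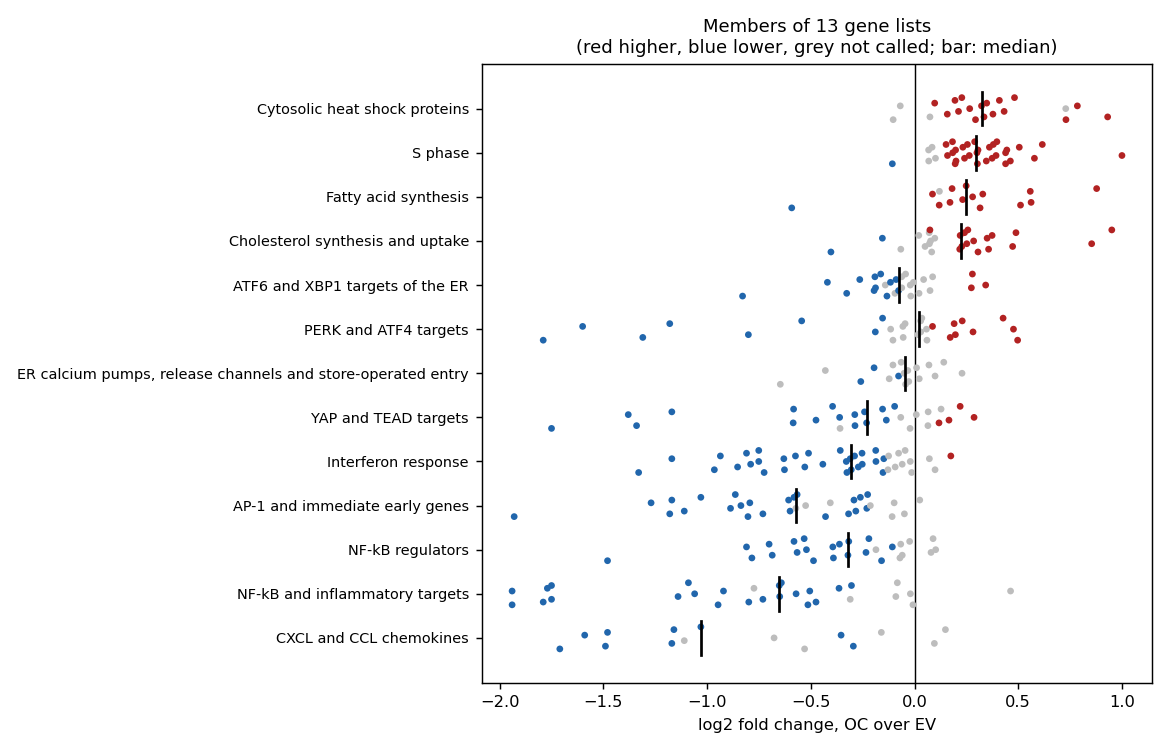
Points are the tested members of 13 gene lists, placed by their log2 fold change of OC over EV, red where higher, blue where lower and grey where not called, and the black bar is the median of the list. Heat shock, S phase and lipid synthesis genes lie mostly right of 0, and NF-kB, chemokine and AP-1 genes mostly left of it.

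Genes of the ER calcium store changed little at the level of RNA. Of 18 tested pumps, release channels and store-operated entry genes, 3 were lower (16.7%, against 21.2% of all tested genes) and 0 were higher (against 19.5%), and in the 18-library test 1 was lower and 0 higher. At an unadjusted p under 0.05 in limma 1 was higher and 3 were lower. ATP2A2 encodes SERCA2, the pump that fills the store. It had 22829, 23425 and 23332 scaled counts in OC libraries, against 23716, 24060 and 23385 in EV libraries, which overlapped (log2 -0.03, SE 0.023, adjusted p = 0.296), and its sign turned under quantile normalization (log2 0.01, adjusted p = 0.587). ITPR1, the type 1 IP3 receptor, had 340, 385 and 342 in OC libraries, against 437, 384 and 344 in EV libraries, and also overlapped (log2 -0.12, SE 0.098, adjusted p = 0.351). ITPR3, the type 3 receptor, was lower, at 11579, 12448 and 12600 in OC libraries, against 14490, 14866 and 14455 in EV libraries (log2 -0.26, adjusted p = 8.35e-05). STIM1, the sensor that opens store-operated channels, fell by 0.19 (adjusted p = 0.0053, and 0.0578 in the 18-library test). The third was CALR, a calcium-binding ER chaperone, by 0.08 (adjusted p = 0.0154, and 0.444 in the 18-library test), whose call did not hold under quantile normalization (0.0564) or without Parental EV replicate 2 (0.0514).

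Calcium genes outside the ER gave isolated changes. Over all tested genes 19.5% were higher and 21.2% were lower, and 5.99% and 8.0% in the 18-library test. Of 14 tested plasma membrane and Golgi transporters, 5 were lower (35.7%) and 2 were higher (14.3%), with 2 and 0 of 17 in the 18-library test. P2RX4, an ATP-gated calcium channel, had 1266, 1246 and 1263 scaled counts in OC libraries, against 1827, 1689 and 1763 in EV libraries (log2 -0.48, adjusted p = 5.47e-06). P2RY2, a G-protein-coupled ATP receptor, rose by 0.45 (adjusted p = 0.00102, and 0.0989 in the 18-library test). CACNA1G, a T-type calcium channel, was listed at 0 in all 3 OC libraries and at 16.2, 13.7 and 13.4 in EV libraries, levels too low to give a fold. It passed the 10-count filter only through its EV libraries. Its place among the 5 lower genes was thus fixed by the filter and is no evidence of a fall. Of 12 mitochondrial uptake genes, 4 were higher (33.3%) and 3 were lower (25.0%), with 1 and 1 in the 18-library test. MCU, the pore of the mitochondrial uniporter, fell by 0.21 (adjusted p = 0.00108, and 0.0935 in the 18-library test). Among 21 calmodulin, CaM kinase, calcineurin and NFAT genes, 4 were higher (19.0%) and 5 were lower (23.8%), with 1 and 2 of 22 in the 18-library test. These shares were close to those over all tested genes. NFATC4, a calcium-regulated transcription factor, fell by 0.69 (adjusted p = 9.72e-06). RCAN1, an inhibitor of calcineurin that NFAT induces, differed by 0.01 (adjusted p = 0.934).

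YAP and TEAD targets and TGF-beta genes were lower more often than higher. Of 27 tested YAP and TEAD genes, 16 were lower (59.3%) and 4 higher (14.8%), against 21.2% and 19.5% of all tested genes. Their median log2 fold change was -0.23. The 18-library test gave 12 of 28 lower and 0 higher, against 8.0% and 5.99%. NUAK2, a kinase gene in this list, had 569, 564 and 551 scaled counts in OC libraries, against 1902, 1870 and 1890 in EV libraries, a 3.36-fold fall (log2 -1.75, SE 0.044, adjusted p = 3.61e-10). CYR61, a matricellular protein and classical YAP target, fell 2.26-fold (log2 -1.17, SE 0.026, adjusted p = 1.63e-10), and CTGF, its relative, by 1.38 (adjusted p = 0.000367). YAP1 itself fell by 0.14 (adjusted p = 0.00456, and 0.168 in the 18-library test) and its paralogue WWTR1 rose by 0.22 (adjusted p = 0.000545, and 0.0501). Of 24 tested TGF-beta ligands, receptors and targets, 14 were lower (58.3%) and 3 were higher (12.5%), with a median of -0.26. These included the inhibitory SMAD7 (log2 -0.74, adjusted p = 3.19e-06), the pseudoreceptor BAMBI (log2 -0.97, adjusted p = 1.35e-07) and the inhibitor of differentiation ID2 (log2 -0.66, adjusted p = 4.23e-07). TGFBR3, a co-receptor, rose by 1.21 (adjusted p = 0.00752).

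Most interferon-stimulated genes were lower. Of 40 tested, 29 were lower (72.5%, against 21.2% of all tested genes) and 1 was higher (2.5%, against 19.5%), with a median of -0.31. The 18-library test gave 18 lower and 0 higher, against 8.0% and 5.99% of all genes tested there. GBP1, a guanylate-binding GTPase, had 2206, 2277 and 2303 scaled counts in OC libraries, against 5665, 5725 and 5716 in EV libraries, a 2.52-fold fall (log2 -1.33, SE 0.03, adjusted p = 1.63e-10). OAS2, an antiviral nucleotide synthetase, fell 1.81-fold (log2 -0.85, adjusted p = 3.61e-08), and MX1, an antiviral GTPase, 1.54-fold (log2 -0.63, adjusted p = 1.75e-07). IRF1, a transcription factor for such genes, fell by 0.63 (adjusted p = 2.38e-07). Antigen presentation genes followed with smaller differences, 11 of 22 lower (50%) and 1 higher (4.55%), and 5 lower and 0 higher in the 18-library test. HLA-E, a class I heavy chain, fell by 0.42 (adjusted p = 4.38e-07). HLA genes resemble each other closely, so reads may have been assigned between them.

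Autophagy receptors and lysosomal genes were lower with small differences. Of 26 tested autophagy genes, 15 were lower (57.7%) and 0 were higher, against 21.2% and 19.5% of all tested genes. The 18-library test gave 8 lower and 0 higher, against 8.0% and 5.99%. SQSTM1, the p62 receptor that carries ubiquitinated cargo and is itself a target of stress signalling, had 7928, 7887 and 8294 scaled counts in OC libraries, against 15851, 15921 and 16012 in EV libraries, a 1.98-fold fall (log2 -0.99, SE 0.026, adjusted p = 5.13e-10). The receptor NBR1 fell by 0.35 (adjusted p = 7.04e-06) and UVRAG, a regulator of the PI3 kinase complex, by 0.53 (adjusted p = 6.36e-06). The core genes BECN1 and ATG5 differed by 0.02 (adjusted p = 0.761) and 0.03 (adjusted p = 0.63). Of 34 lysosomal genes, 18 were lower (52.9%) and 3 were higher (8.82%), with 9 and 1 in the 18-library test. NEU1, a sialidase, fell 1.65-fold (log2 -0.72, adjusted p = 6.75e-08) and NPC1, the cholesterol exporter, 1.33-fold (log2 -0.41, adjusted p = 2.11e-06).

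**Figure D4:**
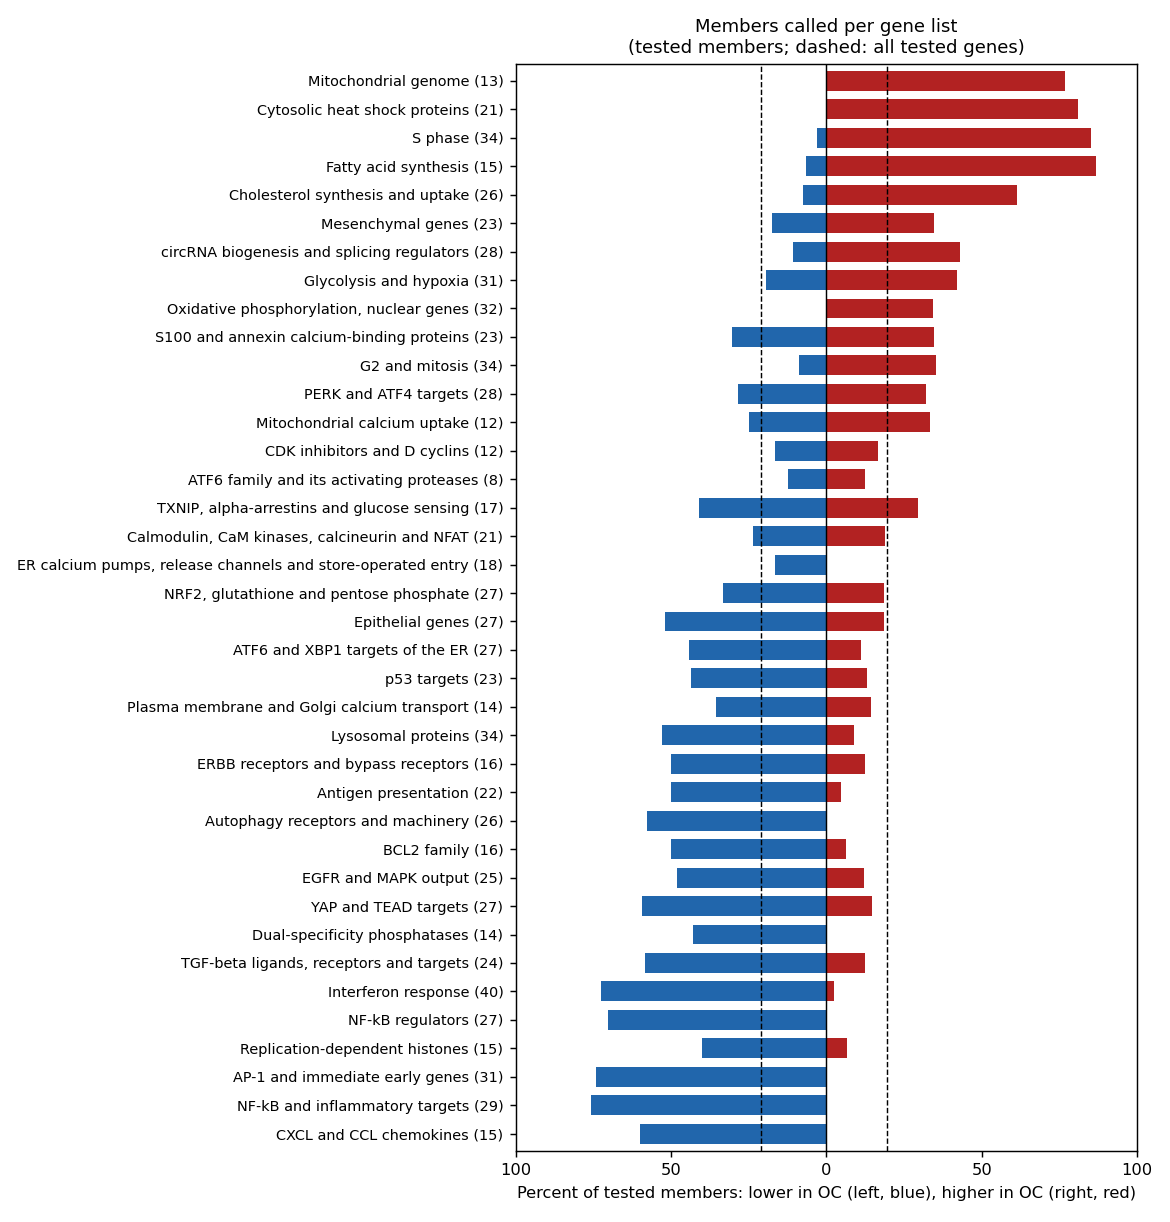
Bars give the percent of tested members of each gene list that were lower in OC (left, blue) or higher in OC (right, red), with the number of tested members in brackets and the lists ordered by median log2 fold change. The dashed lines mark 21.2% lower and 19.5% higher, the shares over all tested genes.

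On the other side, cytosolic heat shock proteins were higher. Of 21 tested, 17 were higher (81.0%, against 19.5% of all tested genes) and 0 were lower, with a median log2 fold change of 0.32. HSPA8, the constitutive Hsp70, had 40126, 40160 and 42505 scaled counts in OC libraries, against 23988, 24867 and 25163 in EV libraries, a 1.66-fold rise (log2 0.73, SE 0.029, adjusted p = 1.39e-08). HSPA1A, an inducible Hsp70, had 3241, 3274 and 3335 in OC libraries, against 1785, 1602 and 1787 in EV libraries, a 1.91-fold rise (log2 0.93, SE 0.045, adjusted p = 5.12e-08). HSPA1A and its near-identical copy HSPA1B (log2 0.78, adjusted p = 3.55e-07) can share reads, so the division between them is uncertain. HSP90AA1, the inducible Hsp90, rose 1.35-fold (log2 0.43, SE 0.024, adjusted p = 1.35e-07), the co-chaperone DNAJA1 1.4-fold (log2 0.48, SE 0.028, adjusted p = 2.38e-07) and HSPH1, an Hsp110 exchange factor, by 0.41 (adjusted p = 7.2e-07). HSF1, the factor that drives these genes, differed by -0.10 (adjusted p = 0.054). The cytosolic chaperone HSPA8 was thus higher while the ER chaperone HSPA5 was lower.

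Replication genes were mostly higher, by amounts that varied with the member. Of 34 tested S phase genes, 29 were higher (85.3%) and 1 was lower (2.94%), against 19.5% and 21.2% of all tested genes. Their median was 0.30. Under the spread pooled over 18 libraries, however, 11 were higher and 0 lower, against 5.99% and 8.0%. PCNA, the replication clamp, had 5922, 5948 and 5740 scaled counts in OC libraries, against 4279, 4299 and 4200 in EV libraries, a 1.38-fold rise (log2 0.46, SE 0.028, adjusted p = 3.17e-07). FEN1, the flap endonuclease of lagging-strand synthesis, rose 1.53-fold (log2 0.62, SE 0.036, adjusted p = 2.16e-07), and MCM6, a subunit of the replicative helicase, 1.36-fold (log2 0.45, SE 0.029, adjusted p = 4.83e-07). CCNE2, a cyclin of the G1 to S transition, rose by 1.00 (adjusted p = 1.28e-05). As these are bulk libraries, more cells in a phase and more RNA per cell cannot be told apart. The member that fell was the licensing factor CDT1 (log2 -0.11, adjusted p = 0.0322, and 0.765 in the 18-library test). G2 and mitosis genes did not match this, with 12 of 34 higher (35.3%), 3 lower (8.82%), a median of 0.04, and 0 called in either direction by limma in the 18-library test, where at an unadjusted p under 0.05 0 were higher and 0 lower.

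Sterol and fatty acid synthesis genes were higher too. Of 26 tested cholesterol genes, 16 were higher (61.5%) and 2 were lower (7.69%), against 19.5% and 21.2% of all tested genes. Their median was 0.22. The 18-library test gave 9 and 1 of 27, against 5.99% and 8.0%. INSIG1, the ER protein that retains SREBP, had 2133, 2236 and 2073 scaled counts in OC libraries, against 1151, 1089 and 1090 in EV libraries, a 1.93-fold rise (log2 0.95, SE 0.044, adjusted p = 3.83e-08). The synthesis enzymes HMGCS1, SQLE and LSS rose by 0.37 (adjusted p = 1.13e-05), 0.49 (adjusted p = 0.000111) and 0.35 (adjusted p = 2.02e-05). ABCA1, which exports cholesterol, fell by 0.40 (adjusted p = 1.41e-05). Of 15 tested fatty acid genes, 13 were higher (86.7%) and 1 was lower (6.67%), with a median of 0.25. SCD, the stearoyl-CoA desaturase, had 25384, 25289 and 25206 in OC libraries, against 17275, 17064 and 17069 in EV libraries, a 1.48-fold rise (log2 0.56, SE 0.022, adjusted p = 8.95e-09). ELOVL6, a fatty acid elongase, rose 1.84-fold (log2 0.88, SE 0.038, adjusted p = 2.09e-08). The exception was ACSL4, which activates polyunsaturated fatty acids and fell 1.51-fold (log2 -0.59, SE 0.032, adjusted p = 1.16e-07).

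TXNIP was among the widest rises outside ATF6. It encodes an alpha-arrestin that binds thioredoxin and limits glucose uptake, and it had 2334, 2285 and 2322 scaled counts in OC libraries, against 958, 1052 and 1050 in EV libraries, a 2.27-fold rise (log2 1.18, SE 0.046, adjusted p = 8.95e-09). ARRDC4, its nearest relative and like it a target of glucose-sensing MondoA, had 129, 138 and 159 in OC libraries, against 57.7, 66.2 and 71.6 in EV libraries (log2 1.11, SE 0.15, adjusted p = 0.000164). Other alpha-arrestins did not move with them, since ARRDC2 fell by 0.41 (adjusted p = 8.73e-06) and ARRDC3 differed by 0.07 (adjusted p = 0.0753). Of 31 tested glycolysis and hypoxia genes, 13 were higher (41.9%) and 6 were lower (19.4%), against 19.5% and 21.2% of all tested genes. The 18-library test gave 5 and 4 of 32, against 5.99% and 8.0%. Enzymes were on the higher side, with PGAM1 at log2 0.52 (adjusted p = 2.29e-07), ENO1 at 0.36 (adjusted p = 1.25e-06) and LDHA at 0.33 (adjusted p = 1.35e-06). The hypoxia-responsive signals ADM and VEGFA were lower, by 0.50 (adjusted p = 1.19e-06) and 0.22 (adjusted p = 2.93e-05), whereas EGLN3, an oxygen-sensing hydroxylase, rose 1.83-fold (log2 0.87, SE 0.039, adjusted p = 2.59e-08).

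Transcripts of the mitochondrial genome took 5.01, 4.48 and 4.58% of counts in OC libraries, against 3.81, 3.65 and 3.89% in EV libraries. Of 13 tested, 10 were higher (76.9%, against 19.5% of all tested genes) and 0 were lower (against 21.2%), with a median of 0.52. MT-CO3, a subunit of cytochrome oxidase, had 144795, 123999 and 128170 scaled counts in OC libraries, against 76698, 74364 and 82104 in EV libraries, a 1.7-fold rise (log2 0.77, adjusted p = 8.23e-07). MT-CO1, the gene with the largest count in all 6 libraries, differed by 0.06 (adjusted p = 0.223). The nuclear genes of oxidative phosphorylation moved less, 11 of 32 higher (34.4%) and 0 lower with a median of 0.06. The 18-library test gave 1 higher, against 5.99% of all genes tested there. The mitochondrial share moved with every group difference above, and its part in them was not tested.

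The widest changes by fold included several scarce or unevenly counted entries. Among the 12 widest falls with a mean of at least 100 in the higher group were AQP9, a water and glycerol channel (52.5, 39.4 and 54.6 scaled counts in OC libraries, against 254, 238 and 242 in EV libraries), and CEACAM7, an adhesion molecule (212, 233 and 258 in OC libraries, against 1066, 1159 and 1175 in EV libraries). LBP, which presents bacterial lipopolysaccharide to its receptor, had 130, 152 and 178 in OC libraries, against 730, 788 and 728 in EV libraries (log2 -2.29, adjusted p = 0.0572 in the 18-library test). ADORA2A, an adenosine receptor, varied among the OC libraries, at 3.96, 229 and 192, against 760, 686 and 702 in EV libraries, and its call did not hold without Parental EV replicate 1 (adjusted p = 0.0514) or in the 18-library test (0.17). Among the widest rises, AL662899.2 had 450, 352 and 197 in OC libraries, against 166, 0 and 0 in EV libraries, and TOMM6, a small subunit of the mitochondrial import channel, had 806, 485 and 692 in OC libraries, against 44.6, 73.0 and 421 in EV libraries. Neither of these rises held with robust estimation of the spread (adjusted p = 0.137 for AL662899.2 and 0.117 for TOMM6), and AL662899.2 was at 0.207 in the 18-library test. LHX4, a homeobox factor, was steadier, at 187, 173 and 192 in OC libraries, against 71.9, 91.9 and 86.8 in EV libraries.

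The same contrast in drug-tolerant and resistant cells was set beside that in Parental cells. The OC effect differed from that in Parental cells for 1506 of 15211 genes in DTP cells (9.9%) and for 4596 in Resistant cells (30.2%), tested as interactions in a fit of 18 libraries, in which both differences share the Parental libraries. The library names in the labels carry another prefix for Resistant libraries than for Parental and DTP libraries, so state and that difference cannot be told apart for them, and DTP EV replicates varied more than the Parental ones (chi-square per degree of freedom 17.1 to 57.5). Leaving out DTP OC replicate 3 or DTP EV replicate 1 gave 524 or 1712 genes with a higher effect in DTP cells, against 829 with all libraries, and 411 or 1438 with a lower effect, against 677. With OC 9.49% of all genes were higher and 8.76% lower in DTP cells, and 16.3% higher and 20.4% lower in Resistant cells. In that fit, of 30 NF-kB and inflammatory targets, 4 were higher and 5 lower with OC in DTP cells, 12 were higher and 1 lower in Resistant cells, and 0 were higher and 19 lower in Parental cells. Some of these genes were scarce in Resistant cells. Mean scaled counts there were 8.39 in OC and 0 in EV libraries for BCL2A1, 18.2 and 10.3 for IL1A, and 0 in both for CSF2. TNFAIP3 differed between OC and EV by -0.02 (adjusted p = 0.794) in DTP cells and rose by 0.73 (adjusted p = 1.37e-08) in Resistant cells. Both effects differed from the fall in Parental cells, by 1.45 (adjusted p = 5.11e-09) and 2.20 (adjusted p = 7.57e-12). CXCL8 had interactions of 1.7 (adjusted p = 5.95e-05) and 2.57 (adjusted p = 7.04e-08), and the TXNIP rise differed by -1.48 in DTP cells (adjusted p = 0.00028) and -1.26 in Resistant cells (adjusted p = 0.000157).

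Proliferation genes were counted in the same way. Of 34 S phase genes, 31 were higher with OC in DTP cells and 0 lower, 0 were higher and 29 lower in Resistant cells, and 11 were higher and 0 lower in Parental cells in the same fit. In the interaction test, however, 1 S phase gene had a higher and 1 a lower effect in DTP than in Parental cells, while 30 had a lower effect in Resistant cells. G2 and mitosis genes had 33 of 34 higher in DTP cells and 30 of 34 lower in Resistant cells, against 0 of 34 called in Parental cells, and the interaction was called for 19 genes in DTP cells, all higher, and 25 in Resistant cells, all lower. HSPA5 rose by 0.77 with OC in Resistant cells (adjusted p = 2.56e-10), which differed from its fall in Parental cells by 0.96 (adjusted p = 2.48e-09). The ATF6 rise itself was 2.66 on the log2 scale in DTP cells, not called different from Parental (0.04, SE 0.09, adjusted p = 0.842), and 3.94 in Resistant cells, wider than in Parental cells by 1.32 (adjusted p = 3.81e-08).

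**Figure D5:**
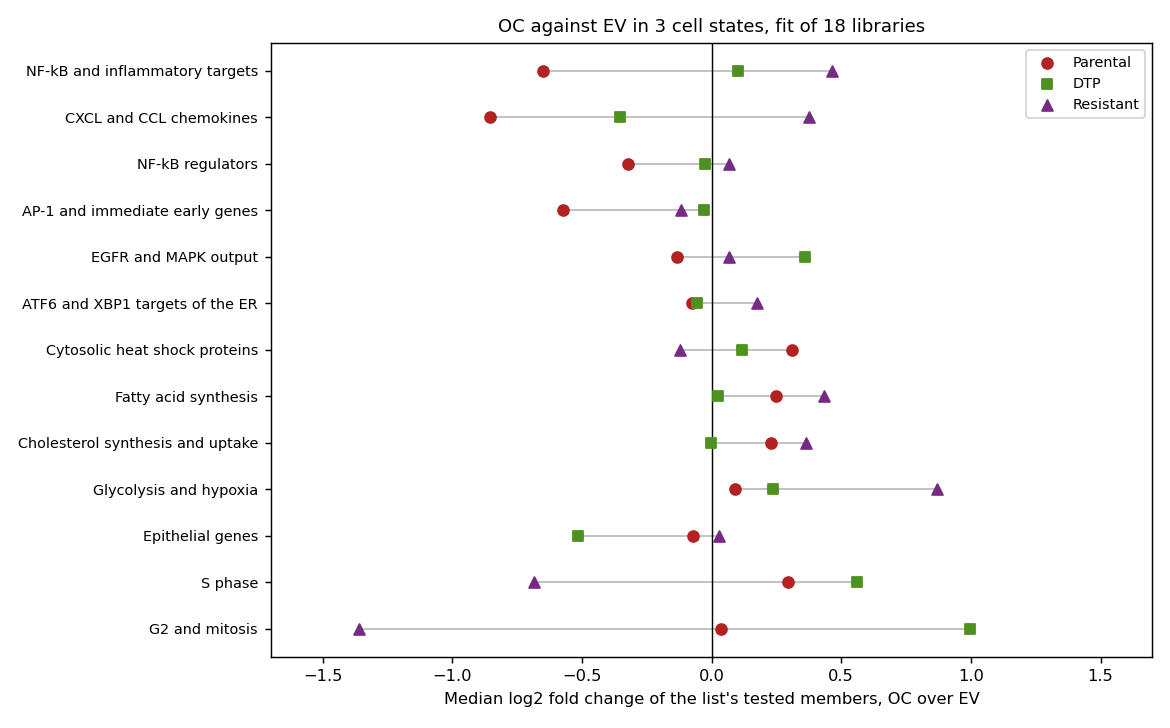
For 13 gene lists the median log2 fold change of OC over EV is plotted in Parental cells (red circles), DTP cells (green squares) and Resistant cells (purple triangles), all from the fit of 18 libraries. NF-kB targets sit at -0.65 in Parental cells, 0.10 in DTP cells and 0.46 in Resistant cells, and S phase genes at 0.30, 0.56 and -0.68. Some NF-kB targets were scarce in Resistant cells.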

How the data were processed

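RNA-seq of HCC827 cells was analysed in 6 Parental libraries, with 12 DTP and Resistant libraries added for comparisons between states. Reads were processed with FastQC, STAR, featureCounts and MultiQC on hg19, per the submitters' processing notes; versions and the strand setting are not given in the sources used here. The deposited values are log10 of the count plus 1 per gene. Undoing the log gave whole numbers for 100% of values (tolerance 1e-06). Of 22549 lines, 2557 unnamed new genes (under 1% of counts in each Parental library) and 60 lines of 15 repeated symbols were left out, and 6 columns that match no sample were not used. The authors' deposited circRNA table was read only for positions and spliced lengths in bases, an other kind of value. Sequences come from RefSeq (GRCh38.p14), and intervals on shares are 95% Wilson intervals that cover counting error only.

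Counts were scaled by TMM (trims 0.3 and 0.05) over 18 libraries. Genes that reached 10 counts in 3 or more of the 6 libraries were tested on log2(scaled count + 1), a scale that understates changes of low genes, with limma 3.58.1 in R 4.3.3 (two-sided moderated test with a mean-variance trend, Benjamini-Hochberg threshold 0.05). The test was checked on simulated counts whose spread was taken from the same 6 libraries, so the check cannot tell technical from biological spread. Tables and figures were made with Python 3.11.15, numpy 2.4.6, pandas 2.3.3 and matplotlib 3.10.9. Named genes are ATF6 and, among called genes, the 12 widest rises and the 12 widest falls. These rises and falls needed no overlap between the groups and a mean of at least 100 in the higher one. Up to 4 called members per list with the smallest p were added, and 12 genes picked for this report. The members and the 42 lists were chosen with earlier results of these data known. Deviations of same-numbered OC and EV libraries correlated at 0.0835, 0.115 and -0.00977, so the numbers were not taken to pair the libraries. Alternatives were other scalings, filters, pseudocounts, estimates of the spread and sets of libraries. Some results on single genes are not reported here.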

Additional observations from a re-analysis of the deposited data

Results flagged for a closer look

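The OC effect was compared between states for 13 genes in 2 states, and 15 of these differences passed the interaction test of the 18-library limma fit. Over all genes of that fit, the difference passed for 9.9% in DTP cells and 30.2% in Resistant cells. DTP EV replicates varied more than the Parental ones (chi-square per degree of freedom 17.1 to 57.5). Values are the effect in the named state minus that in Parental cells, on the log2 scale, and all share the Parental libraries. In DTP cells the effect was higher by 0.237 for EGFR (adjusted p = 0.0331), 0.568 for MET (0.0253), 1.88 for AXL (0.00145), 1.45 for TNFAIP3 (5.11e-09) and 1.7 for CXCL8 (5.95e-05). It was lower there for TXNIP (-1.48, adjusted p = 0.00028) and CDH1 (-0.50, adjusted p = 0.0423). In Resistant cells the effect was higher by 1.32 for ATF6 (adjusted p = 3.81e-08), 1.61 for AXL (0.000983), 0.961 for HSPA5 (2.48e-09), 0.40 for ATP2A2 (0.00058), 2.20 for TNFAIP3 (7.57e-12) and 2.57 for CXCL8 (7.04e-08). It was lower there for EGFR (-0.217, adjusted p = 0.0204) and TXNIP (-1.26, adjusted p = 0.000157). AXL, which was not called in Parental cells, had an OC effect of 1.52 in DTP cells (adjusted p = 0.000389) and 1.25 in Resistant cells (adjusted p = 0.000339). Library names in the labels carry another prefix for Resistant cells, and this cannot be told apart from their state.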

How the results depend on the processing

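The 2732 higher and 2966 lower calls in Parental cells moved most with the libraries that set the spread, to 911 and 1217 with 18 libraries and 1105 and 1371 with the 12 Parental and DTP libraries. Calls of at least 1.5-fold, a count chosen after seeing the data, went to 120 and 294 with 18 libraries, against 209 and 469. With 1 library left out they were 178 to 216 and 429 to 491, and all calls 2242 to 2558 higher and 2476 to 2828 lower. With replicate number as a block 2642 were higher and 2901 lower, and of the named genes CDH5 alone lost its call (adjusted p = 0.0614); the numbers are not known to pair the libraries. The interaction counts in DTP cells, 829 higher and 677 lower, ran from 524 to 1712 and from 411 to 1438 with 1 library left out. ATP2A2 changed sign under quantile normalization (0.0146, adjusted p = 0.587), and it was called in neither. Of 177 named genes 121 had the same call under every alternative run and 172 with each library left out, while 48 lost their call with 18 libraries and 43 with 12. Of 84 list counts 48 moved by over 1.5 times with 18 libraries and 0 with voom. With 12 or 18 libraries the log2 fold changes stayed the same by design, while the spread and the set of tested genes changed. What widened the spread, and the causes of the other shifts, were not tested. Depth limits what can be said of genes under 10 counts, which were not tested.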

Other observations

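Among p53 targets and BCL2 family genes more were lower than higher in Parental OC cells, against Parental EV cells. Of 23 tested p53 targets 10 were lower (43.5%) and 3 were higher (13%). Of 16 tested BCL2 family genes 8 were lower (50%) and 1 was higher (6.25%). The shares over all tested genes were 21.2% and 19.5%. In the 18-library test 8 p53 targets were lower and 1 higher. Of 17 BCL2 family genes 5 were lower and 1 higher there, against 8.0% and 5.99% of all genes tested. GADD45A, a stress sensor that halts the cell cycle, had 1302, 1335 and 1340 scaled counts in OC libraries, against 2740, 2578 and 2652 in EV libraries (log2 -1.0, adjusted p = 8.46e-09). BBC3 and PMAIP1, which encode the death-promoting proteins PUMA and NOXA, fell too (log2 -1.0, adjusted p = 6.24e-07 for BBC3 and log2 -0.67, adjusted p = 1.8e-06 for PMAIP1). Members that oppose death were also lower, so the family did not split by function. BCL2A1 fell by 0.65 (adjusted p = 4.22e-07, and 0.208 in the 18-library test), and MCL1 was called lower (0.23 in the 18-library test). CDKN1A, the p21 inhibitor of cyclin-dependent kinases, had 521, 547 and 493 scaled counts in OC libraries, against 748, 751 and 721 in EV libraries (log2 -0.51, adjusted p = 6.06e-05), and CDK4, a kinase it restrains, rose (log2 0.29, adjusted p = 3.63e-06). The p53 targets SESN1 and TIGAR went the other way (log2 0.44, adjusted p = 0.0211 for SESN1, and 0.131 in the 18-library test, and log2 0.39, adjusted p = 0.000651 for TIGAR).

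S100 and annexin proteins, which bind calcium, split by member, with 8 of 23 higher (34.8%) and 7 lower (30.4%). The 18-library test gave 5 and 3 of 24. S100A8, an inflammatory protein of the calprotectin pair, had 915, 801 and 796 scaled counts in OC libraries, against 1702, 1844 and 1850 in EV libraries (log2 -1.10, adjusted p = 1.42e-07), and S100P fell as well (log2 -1.08, adjusted p = 3.49e-06). S100A4, linked to cell motility, rose (log2 0.61, adjusted p = 0.00551). Epithelial genes were more often lower, 14 of 27 (51.9%) against 5 higher (18.5%), and 4 lower and 1 higher in the 18-library test. CDH1, the E-cadherin gene, fell slightly (log2 -0.19, adjusted p = 0.000102, and 0.281 in the 18-library test). Of 23 tested mesenchymal genes 8 were higher (34.8%) and 4 lower (17.4%), with 6 and 2 of 28 in the 18-library test. CAV1, the caveolin gene, and THBS1, a matrix glycoprotein, rose (log2 0.53, adjusted p = 2.6e-08 for CAV1 and log2 0.42, adjusted p = 6.17e-05 for THBS1). The transcription factors SNAI1 and SNAI2 fell (log2 -0.79, adjusted p = 3.7e-05 for SNAI1 and log2 -1.37, adjusted p = 0.0048 for SNAI2). VIM, the mesenchymal filament vimentin, had 412, 526 and 537 scaled counts in OC libraries, against 582, 558 and 530 in EV libraries, which overlapped (log2 -0.19, adjusted p = 0.145). Of 28 splicing and circular RNA regulators 12 were higher (42.9%) and 3 lower (10.7%), with 7 and 1 of 29 in the 18-library test. The higher ones included the splicing factors SRSF1 (log2 0.65, adjusted p = 2.23e-08) and HNRNPM (log2 0.60, adjusted p = 8.35e-08). Of 27 NRF2 and pentose phosphate genes 9 were lower (33.3%) and 5 higher (18.5%), with 4 and 2 in the 18-library test, and NFE2L2, the NRF2 gene itself, fell (log2 -0.42, adjusted p = 2.97e-07). Of 15 tested replication-dependent histones, whose transcripts mostly lack a poly(A) tail, 6 were lower (40.0%) and 1 was higher (6.67%). Of 12 tested genes in a list of CDK inhibitors and D cyclins, which also holds the kinase CDK4, 2 were higher (16.7%) and 2 were lower (16.7%). Over all tested genes these shares were 19.5% and 21.2%, and 5.99% and 8.0% in the 18-library test. The higher ones were CDK4 and the inhibitor CDKN2C (log2 0.36, adjusted p = 0.00949, and 0.324 in the 18-library test). CDKN1A and CDKN1B were the lower ones.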
